A study of Mus musculus with 9 samples.

Results

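The expression of 10 cytoskeletal genes was described across 9 RNA-seq libraries of mouse cells, out of 56289 genes in the table. The genes were listed by name for their place in glial and neuronal cytoskeleton: Vim, Nes, Gfap, Nefl, Nefm, Nefh, Prph and Ina encode intermediate filament proteins, Tubb3 encodes a β-tubulin and Stmn2 a regulator of microtubules. These 10 genes were chosen with earlier results of these data known. The labels gave the cells of all libraries as RAW264.7, the name of an established murine macrophage-like line from BALB/c mice. Whether the sequenced cells were of that line was not established, because 7 of 16 macrophage markers were at 0 in all libraries, as described below. The libraries formed 3 groups of 3: untreated cells (Con), cells with TNF-α for 24 h (TNF-α), and cells with TNF-α together with an extract of Wang Bi tablet (WBT), a herbal patent medicine, for 24 h (TNF-α+WBT). The label of the last group reads WBP, and it was taken as the WBT group because the series describes no other treatment. The study asked which genes changed on stimulation with the cytokine and which of them were changed by WBT.

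Intermediate filaments are ropes of coiled-coil proteins whose makeup marks the cell type. Vimentin (Vim) is the filament of mesenchymal cells and also of glia and macrophages, nestin (Nes) joins it in precursor cells, and GFAP is the filament protein of astrocytes and of some Schwann cells. The neurofilament light, medium and heavy chains (Nefl, Nefm, Nefh) are built together with α-internexin (Ina) or peripherin (Prph) into the filaments of axons. Class III β-tubulin (Tubb3) and stathmin-2 (Stmn2) act on the microtubule side and are widely used as neuronal marks, although Tubb3 is also made by other cells.

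Of the 10 genes, 6 had a promoter entry in RefSeq (build GRCm38.p6), and 3 stretches are shown because they belong to the member with the largest difference between groups (Tubb3), a member at one level in all groups (Nes) and a member near 0 (Prph). Each stretch is written 5′ to 3′ on the gene's strand, from 250 bases before the RefSeq start up to the first annotated exon of the gene. For Tubb3 it is chr8:123411303-123411423, for Nes chr3:87970843-87971077 and for Prph chr15:99054924-99055173, all on the plus strand. Capitals mark matches to the motifs searched.
Tubb3: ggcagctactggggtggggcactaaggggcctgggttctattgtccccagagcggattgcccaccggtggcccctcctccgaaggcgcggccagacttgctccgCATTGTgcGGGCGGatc
Nes: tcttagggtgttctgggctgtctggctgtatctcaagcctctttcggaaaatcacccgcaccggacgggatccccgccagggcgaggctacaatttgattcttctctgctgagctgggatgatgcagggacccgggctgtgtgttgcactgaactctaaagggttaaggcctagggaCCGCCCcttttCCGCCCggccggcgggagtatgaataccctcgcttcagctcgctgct
Prph: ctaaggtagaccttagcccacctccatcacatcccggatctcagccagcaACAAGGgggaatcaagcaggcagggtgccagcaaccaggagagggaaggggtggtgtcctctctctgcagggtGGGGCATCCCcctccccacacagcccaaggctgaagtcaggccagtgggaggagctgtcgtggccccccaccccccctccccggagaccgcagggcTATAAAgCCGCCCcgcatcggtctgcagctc

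The motifs were searched on both strands of the 250 bases before each RefSeq start: the AP-1 motif TGANTCA, the κB motif by its 10-base consensus, the SOX core ACAANG, the TATA box TATAAA and the GC box GGGCGG. No matches to different motifs overlapped in the 6 promoters. The Tubb3 window held 2 SOX cores, at -146 and -96, and 2 GC boxes, at -138 and -46, and no AP-1, κB or TATA box match. The first annotated exon of Tubb3 begins at -129. The matches at -96 and -46 therefore lie within the annotated gene, outside the printed stretch. The Nes window held 2 GC boxes and the Ina window 2. The Vim window held a κB match at -223, a TATA box at -32 and a SOX core at -12, and the Prph window had 1 match each of the κB, SOX, TATA and GC box motifs. The Gfap window held none of the 5 motifs. The Vim and Gfap windows lie wholly within the annotated genes, after the start of the first annotated exon. Over 32851 promoters of the same length, 36.3% held the SOX core, 32.7% the GC box, 12.4% the TATA box, 6.75% the AP-1 motif and 3.90% the κB motif, so that the matches in Tubb3 were of the common kinds. The GC content of the Tubb3 window was 68.0%, that of Ina 70.8% and that of Nes 58.8%, against a median of 52.4% over all promoters. These matches are descriptions of letters and not of bound sites.

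The files hold FPKM, that is, fragments per kilobase of a transcript after scaling to each library's depth. Depth, inferred from how far a single fragment moves the values of low genes, was 20220000 to 26050000 fragments in Con, 18880000 to 22420000 in TNF-α and 16840000 to 19820000 in TNF-α+WBT, and no library repeated another. The macrophage label was checked against 16 marker genes. Of these, Ptprc, Spi1, Adgre1, Itgam, Tyrobp, Cybb and Ctss were at 0 in all 9 libraries, and 1 lay above 1 FPKM in all of them (Cd14), while all 8 genes used by every cell did. The 2 highest macrophage markers were Cd74, at a mean of 8.91 FPKM, and Cd14, at 5.25 FPKM. By contrast 9 of 12 Schwann cell markers and 10 of 12 fibroblast markers lay above 1 FPKM in all libraries, among them Ngfr (125 ± 33.8 FPKM, SD, n = 9), S100a4 (1177 ± 95.0) and Sparc (1065 ± 48.6). Of the 12 neuron markers only Uchl1 did, and Rbfox3, Elavl4 and Slc17a6 were at 0 in every library. Of the 8 astrocyte markers 3 lay above 1 FPKM in all libraries, the 2 highest being Gja1 and Glul at means of 59.2 and 20.7 FPKM, and Aqp4 was at 0 in all, as was Lum of the fibroblast markers. The levels below are therefore those of the cultures as sequenced, and the label RAW264.7 is used only as the name the submitters gave.

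**Figure D1:**
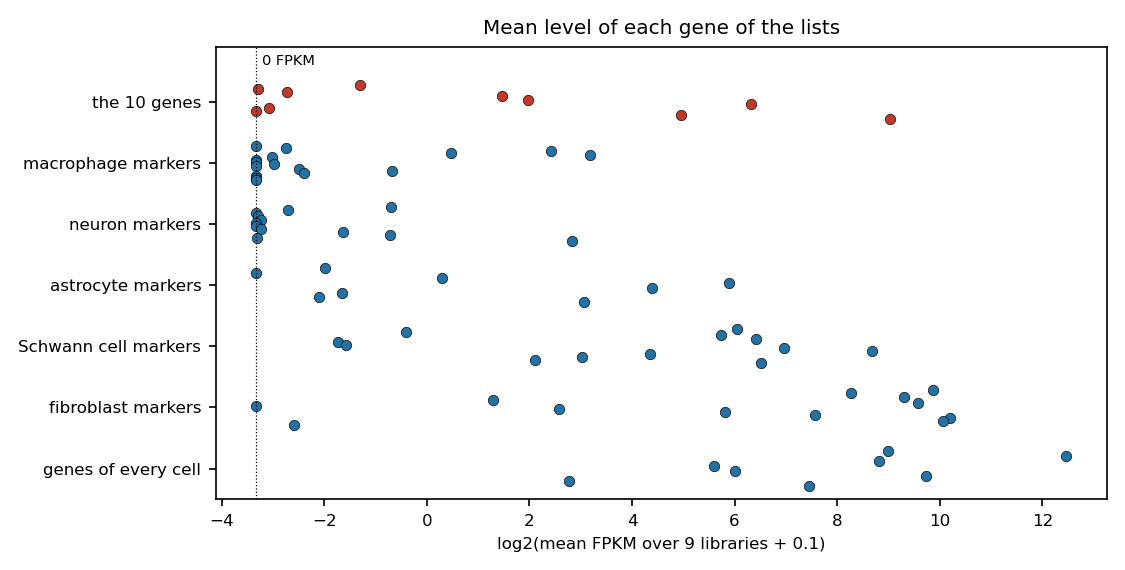
Mean level of each gene of 7 lists, as log2(mean FPKM over 9 libraries + 0.1); each point is 1 gene and the dotted line marks 0 FPKM. Of the 16 macrophage markers 7 sit on the line at 0, whereas Vim (524 FPKM) and Nes (79.5 FPKM), the 2 rightmost points of the 10 genes, lie in the range of the Schwann cell and fibroblast markers.

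The mean levels of the 10 genes ran from 524 FPKM to 0. FPKM is per length of transcript, so their levels can be set side by side. In order of the mean over 9 libraries they were Vim at 524 FPKM, Nes at 79.5, Tubb3 at 30.7, Nefm at 3.81, Nefl at 2.64, Gfap at 0.308, Nefh at 0.0519, Prph at 0.0191, Ina at 0.00204 and Stmn2 at 0. From Vim to Gfap each gene was above the next in all 9 libraries. The ranges of Nefm and Nefl overlapped across groups, but within each library Nefm was the higher. Among the lowest 4 the order was not resolved: Nefh exceeded Prph in 7 of 9 libraries, Prph exceeded Ina in 2, and Ina exceeded Stmn2 in 1.

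The spread over libraries also differed widely between members. Nes had a coefficient of variation of 2.81% over the 9 libraries and Vim of 10.6%, whereas Nefl, Nefm and Tubb3 had 44.2%, 50.7% and 60.5%. Within a group, Tubb3 varied by 3.49% to 7.29%, so that nearly all of its spread lay between groups.

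**Figure D2:**
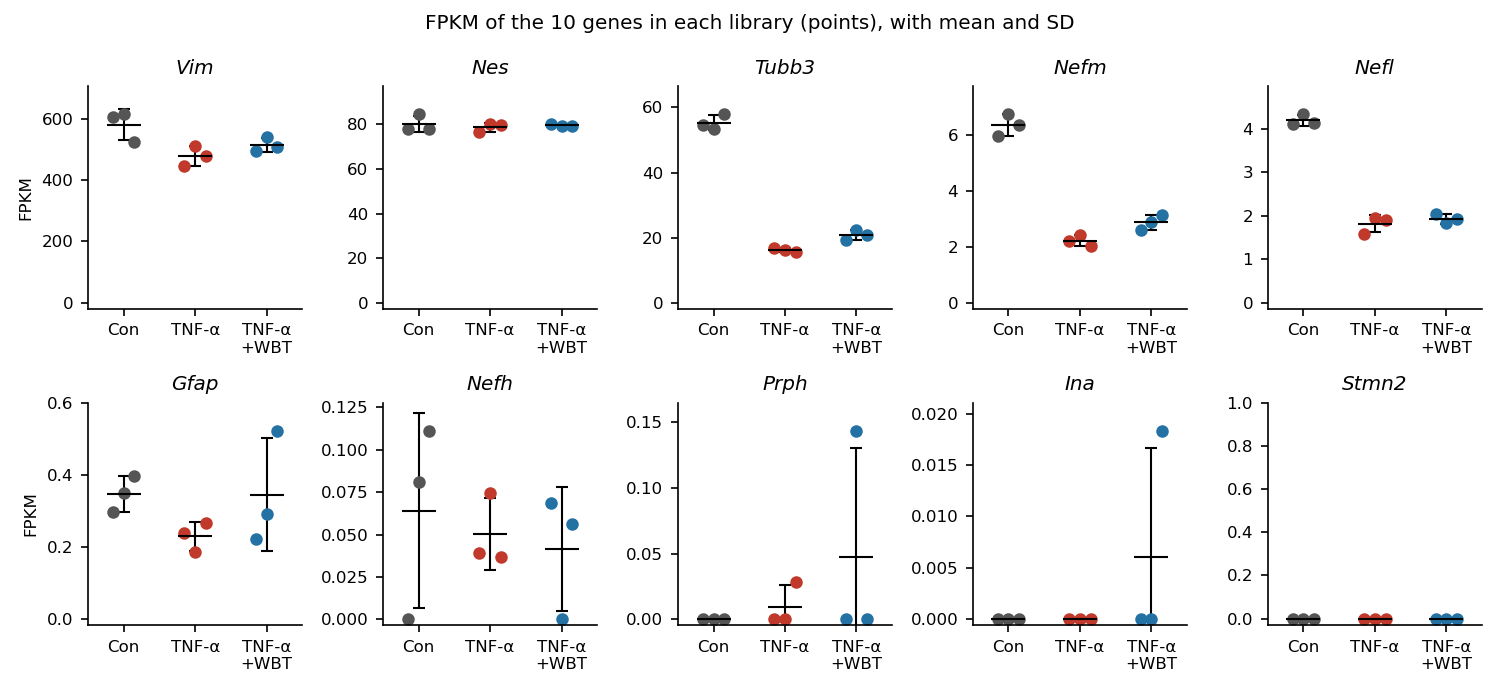
FPKM of each of the 10 genes (y axes from 0, a scale per gene) in Con, TNF-α and TNF-α+WBT; points are libraries, and bars give the mean and SD of 3. Tubb3, Nefm and Nefl lie higher in the 3 Con libraries than in all 6 others, Nes is level near 79.5 FPKM, and Stmn2 is at 0 throughout.

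Tubb3, Nefm and Nefl fell in TNF-α against Con, and no tested member rose. Tubb3 fell by 1.77 on the log2(FPKM + 0.1) scale, Nefm by 1.47 and Nefl by 1.17. Of the 10 genes, 7 passed the filter of more than 0 FPKM in at least 3 libraries and entered the limma model of 25417 genes. Of these 7, 3 were called lower at a Benjamini-Hochberg adjusted p under 0.05 and 0 higher, and the same number passed the thresholds of the study, a fold change over 2 and an unadjusted p under 0.05. Of all tested genes, 4.86% were called at the adjusted threshold, 2.94% as higher and 1.93% as lower, and 2.42% at the thresholds of the study. Because the 10 genes were chosen with earlier results of these data known, their count beside these shares is only a description. The median difference of the 7 members was -0.44, beside 0.0028 over all tested genes. This median is the value of Gfap, which was not called and had a 95% interval from -1.08 to 0.20. Vim, Nes and Nefh, also not called, had -0.28, -0.025 and -0.068, so the median does not show a fall of the members as a whole. In bulk RNA, fewer cells of a kind and less RNA per cell cannot be told apart.

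Tubb3 had the largest difference of the members. Its level was 54.7, 53.4 and 57.9 FPKM in the Con libraries, 16.7, 16.1 and 15.6 FPKM with TNF-α, and 19.3, 22.3 and 20.9 FPKM with TNF-α and WBT. The 3 groups did not overlap, with Con highest and TNF-α lowest. Between Con and TNF-α the means differed 3.43-fold, a log2 difference of -1.77 (SE 0.060, 95% interval -1.91 to -1.64, limma adjusted p = 1.26e-06), which was rank 15 by p of 25417 genes. An exact two-sided permutation test gave p = 0.1, below which groups of 3 libraries cannot go. The estimated number of fragments behind these values was 2150 to 2661 in Con, 549 to 674 in TNF-α and 656 to 825 in TNF-α+WBT, so counting error was small beside the difference.

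The neurofilament medium chain followed the same order of groups as Tubb3 at a lower level. The means of the light chain had this order too, but its TNF-α and TNF-α+WBT libraries overlapped. Nefm lay at 5.95, 6.73 and 6.35 FPKM in Con, 2.22, 2.41 and 2.04 FPKM in TNF-α and 2.61, 2.88 and 3.13 FPKM in TNF-α+WBT. Again no 2 groups overlapped. The means of Con and TNF-α differed 2.85-fold (log2 difference -1.47, SE 0.10, limma adjusted p = 8.40e-05, exact permutation p = 0.1).

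Nefl lay at 4.12, 4.33 and 4.12 FPKM in Con, 1.59, 1.95 and 1.90 FPKM in TNF-α and 2.04, 1.82 and 1.92 FPKM in TNF-α+WBT. Con stood above both other groups, and these 2 overlapped. The means of Con and TNF-α differed 2.31-fold (log2 difference -1.17, SE 0.11, limma adjusted p = 0.000521, exact permutation p = 0.1). Between 109 and 363 fragments lay behind the Nefl values and between 129 and 518 behind those of Nefm.

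The heavy chain, which is added to axonal filaments last in development, was near the limit of detection. Nefh was listed at 0, 0.0812 and 0.111 FPKM in Con, 0.0389, 0.0748 and 0.0368 FPKM in TNF-α, and 0.0683, 0 and 0.0562 FPKM in TNF-α+WBT. The groups overlapped, and no library held more than an estimated 9 fragments of the gene. The log2 difference of TNF-α from Con was -0.068 with a 95% interval from -0.79 to 0.65 (limma adjusted p = 0.959), and at so low a level the 0.1 FPKM added before taking logarithms shrinks any difference.

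The partners of the neurofilaments were hardly detected. Peripherin, the filament protein of peripheral neurons, was at 0 in 7 libraries, at 0.0284 FPKM in TNF-α 3 and at 0.144 FPKM in TNF-α+WBT 2, where it rested on 3 estimated fragments. Ina was at 0 in 8 libraries and at 0.0183 FPKM in TNF-α+WBT 3, which is 1 fragment. Stmn2 was at 0 in all 9. A count of 0 allows up to 3 fragments, which for Stmn2 is 0.0555 to 0.0859 FPKM depending on the library and for Ina 0.0355 to 0.0550 FPKM, counting error only. These 3 genes did not pass the filter and have no test.

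Vim, by far the most abundant member, was somewhat lower with TNF-α without passing the adjusted threshold. It lay at 605, 614 and 522 FPKM in Con, 444, 510 and 477 FPKM in TNF-α and 495, 540 and 509 FPKM in TNF-α+WBT. Every TNF-α library was below every Con library, whereas TNF-α+WBT overlapped both. The log2 difference of TNF-α from Con was -0.28 (SE 0.074, 95% interval -0.45 to -0.11) with a limma adjusted p of 0.0811 and an exact permutation p of 0.1. Without Con replicate 3, the lowest Con library, the log2 difference was -0.35 and the adjusted p 0.0297, and when only genes averaging 1 FPKM or more were tested the adjusted p was 0.0411, so that the call rested on these choices. Over all alternatives the adjusted p was 0.0297 to 0.217.

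Nes was level in all groups. It lay at 78.0, 84.5 and 77.9 FPKM in Con, 76.4, 79.9 and 79.8 FPKM in TNF-α and 80.2, 79.3 and 79.3 FPKM in TNF-α+WBT. The groups overlapped, and the log2 difference of TNF-α from Con was -0.025 with a 95% interval from -0.11 to 0.065 (limma adjusted p = 0.838). The interval lies far from -1.17, the difference of Nefl and the smallest of the 3 that passed the test. The ratio of Vim to Nes was 7.24 ± 0.526 in Con, 6.06 ± 0.292 in TNF-α and 6.46 ± 0.321 in TNF-α+WBT (SD, n = 3 each).

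Gfap was low in every library. It lay at 0.297, 0.350 and 0.396 FPKM in Con, 0.238, 0.187 and 0.266 FPKM in TNF-α and 0.223, 0.291 and 0.522 FPKM in TNF-α+WBT. The Con and TNF-α libraries did not overlap, whereas TNF-α+WBT overlapped both. The log2 difference of TNF-α from Con was -0.44 with a 95% interval from -1.08 to 0.20 (limma adjusted p = 0.523, exact permutation p = 0.1), and the values rested on 10.8 to 20.0 estimated fragments a library.

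**Figure D3:**
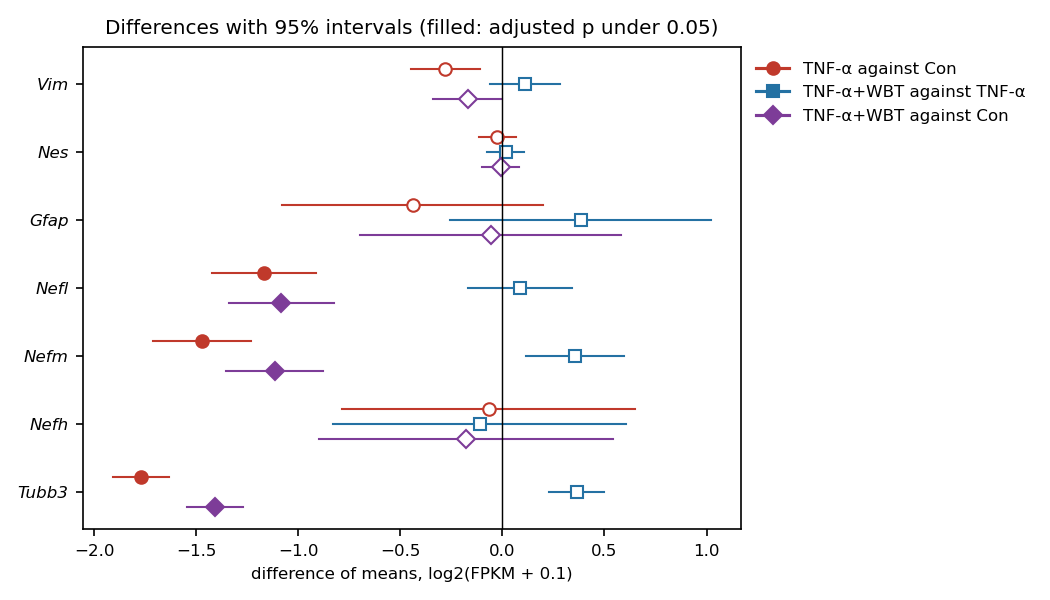
Difference of group means on the log2(FPKM + 0.1) scale (x axis) for the 7 tested genes (y axis) in 3 comparisons, with 95% intervals from limma; filled symbols have an adjusted p under 0.05. Filled symbols stand at Tubb3, Nefm and Nefl in both comparisons against Con, and none in TNF-α+WBT against TNF-α.

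WBT in the presence of TNF-α was not followed by a called difference in any member. In TNF-α+WBT against TNF-α, 0 of the 7 tested members were called by limma at the adjusted threshold and 0 at the thresholds of the study, where 0.00393% (1 gene, March8, named after its value was seen) and 1.12% of all tested genes were. At an unadjusted p under 0.05 alone, 2 members passed, Tubb3 and Nefm, as did 1605 of all tested genes. Both had all 3 TNF-α+WBT libraries above all 3 TNF-α libraries. The share of all tested genes that separated in this way was not counted, so the separation cannot be read as a result about these 2 members. Other filament genes also separated in this comparison without being called, Lmna upward and Krt80, Lmnb1 and Lmnb2 downward. The log2 difference was 0.36 for Tubb3 (SE 0.060, 95% interval 0.23 to 0.50, limma adjusted p = 0.219) and 0.35 for Nefm (SE 0.10, 95% interval 0.12 to 0.59, adjusted p = 0.645), with an exact permutation p of 0.1 for each. In FPKM the means of TNF-α+WBT were 1.29 times those of TNF-α for both genes. The adjusted p stayed between 0.159 and 0.502 for Tubb3 and between 0.548 and 0.860 for Nefm over all alternatives.

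Nefl had a log2 difference of 0.086 in this comparison (95% interval -0.17 to 0.34, limma adjusted p = 0.939), and its interval overlapped those of Tubb3 and Nefm. Vim had a difference of 0.11 (-0.061 to 0.28, adjusted p = 0.867), Nes of 0.017 (-0.073 to 0.11, adjusted p = 0.973), Gfap of 0.38 (-0.26 to 1.02, adjusted p = 0.877) and Nefh of -0.11 (-0.83 to 0.61, adjusted p = 0.981). Whether the differences of Tubb3 and Nefm were larger than that of Nefl was not tested. The median over the 7 members, which is the value of Vim, was 0.11, beside -0.0020 over all tested genes.

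With WBT present, the cells still stood below Con in the same 3 members. In TNF-α+WBT against Con, which shares its libraries with both comparisons above, 3 of 7 tested members fell at the adjusted threshold, 0 rose, and 3 passed the thresholds of the study. Of all tested genes 3.71% were called at the adjusted threshold, 2.31% as higher and 1.40% as lower, and 2.29% at the thresholds of the study. The log2 difference was -1.41 for Tubb3 (limma adjusted p = 6.82e-06), -1.12 for Nefm (adjusted p = 0.000572) and -1.08 for Nefl (adjusted p = 0.00102). Vim had -0.17 (95% interval -0.34 to -0.0011, adjusted p = 0.336), Nes -0.0082, Gfap -0.057 and Nefh -0.18, none of them past the threshold.

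The makeup of each filament class was compared as well. Tubb3 made up 8.57% ± 0.560 of the summed FPKM of the 8 β-tubulin genes in Con, 2.72% ± 0.107 in TNF-α and 3.56% ± 0.205 in TNF-α+WBT (SD, n = 3 each). The groups did not overlap in any pair (exact permutation p = 0.1 for each). The sum itself was 646 ± 19.2 FPKM in Con, 593 ± 4.78 FPKM in TNF-α and 583 ± 9.21 FPKM in TNF-α+WBT. Without Tubb3 the sum of the 7 other genes was 591 ± 20.8, 577 ± 5.10 and 563 ± 7.74 FPKM, and Con and TNF-α overlapped in it.

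The ratio of Nefl to Nefm was 0.692, 0.643 and 0.649 in Con, 0.714, 0.811 and 0.932 in TNF-α and 0.781, 0.633 and 0.612 in TNF-α+WBT. It was higher in all TNF-α libraries than in all Con libraries (exact permutation p = 0.1), and TNF-α+WBT overlapped both. Vim made up 86.4% ± 0.903, 85.2% ± 0.571 and 85.8% ± 0.589 of the summed FPKM of the 8 filament genes in Con, TNF-α and TNF-α+WBT.

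**Figure D4:**
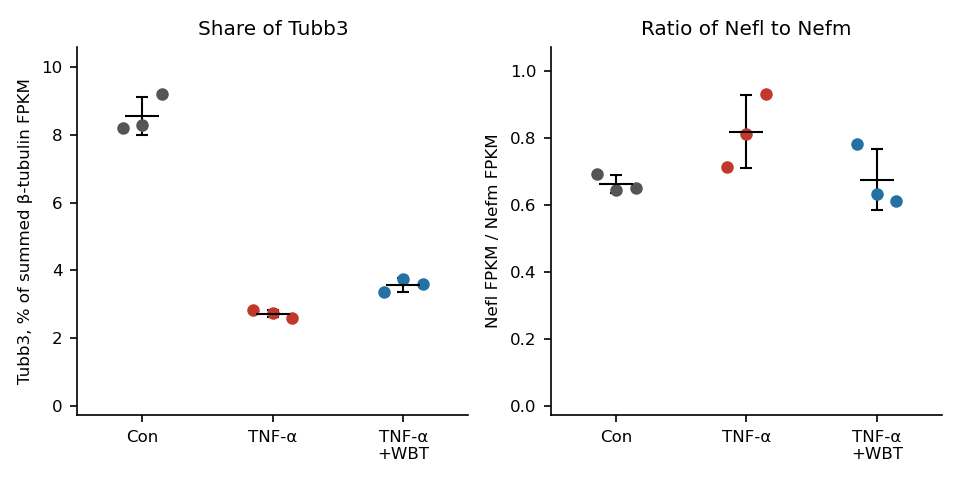
Left, share of Tubb3 in the summed FPKM of 8 β-tubulin genes (y axis, %); right, FPKM of Nefl divided by that of Nefm; both by group, with libraries as points and bars for the mean and SD of 3. The share of Tubb3 is 8.21% to 9.22% in Con and at most 3.76% in the 6 other libraries, and the ratio is 0.643 to 0.692 in Con and 0.714 to 0.932 in TNF-α.

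Among other intermediate filament genes, keratins, lamins and the desmin group, none fell in TNF-α against Con. Of 19 listed, 15 were tested, 2 rose and 13 did not pass, with a median log2 difference of 0.0069. Over all tested genes 2.94% were called higher and 1.93% lower, and the counts of the lists that follow stand beside the same shares. Krt80, a keratin of epithelia, rose from 1.08, 1.21 and 1.04 FPKM in Con to 2.89, 3.01 and 2.71 FPKM (log2 difference 1.30, limma adjusted p = 0.000351) and lay at 2.07, 2.21 and 2.26 FPKM in TNF-α+WBT. Sync, which encodes the desmin-binding protein syncoilin, rose by 0.49 (adjusted p = 0.0192). The 2 most abundant were the nuclear lamins Lmna, at a mean of 131 FPKM, and Lmnb1, at 14.3 FPKM. Neither passed the test, with -0.31 (adjusted p = 0.223) and 0.10 (adjusted p = 0.483).

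The 12 genes that tie filaments to other structures were all tested, and 1 rose, 1 fell and 10 did not pass in TNF-α against Con. Sun2, a protein of the inner nuclear membrane, rose by 0.46 (limma adjusted p = 0.00190), and Syne3, a nesprin of the outer nuclear membrane, fell by 0.63 (adjusted p = 0.0193). The 2 most abundant linkers were the cytolinkers Dst (118 FPKM) and Plec (43.1 FPKM), at 0.083 and 0.087, and neither passed.

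Of the 15 other tubulins, all tested, 0 rose and 1 fell in TNF-α against Con, where 1.93% of all tested genes were called lower. This was Tubb4a, another β-tubulin of neurons and glia, which went from 12.6, 13.5 and 11.7 FPKM in Con to 5.56, 6.28 and 5.92 FPKM, a log2 difference of -1.08 (SE 0.092, limma adjusted p = 0.000255), and was 7.31, 7.53 and 6.18 FPKM in TNF-α+WBT. Its groups had the same order as those of Tubb3, although TNF-α and TNF-α+WBT overlapped. The 2 most abundant tubulins, Tuba1a (538 FPKM) and Tuba1b (388 FPKM), had differences of 0.083 and -0.055 that did not pass, and the median of the list was -0.015.

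Among microtubule-associated and growth cone proteins, 18 of 20 were tested, 2 rose, 3 fell and 13 did not pass, with a median of 0.14. Dpysl4, a collapsin response mediator, fell by 1.67 (limma adjusted p = 0.00714) from a mean of 1.11 to 0.283 FPKM. Map1a and Map1b, which bind along microtubules, fell by 0.81 (adjusted p = 0.00686) and 0.27 (adjusted p = 0.00357). Dclk1, a doublecortin-like kinase, rose by 0.56 (adjusted p = 0.00422), and the other gene that rose, named after the values were seen, was Basp1, a membrane protein of growth cones, by 0.21 (adjusted p = 0.0252). Marcks and Marcksl1, membrane-bound regulators of actin, were the most abundant at 118 and 117 FPKM and did not pass, with -0.12 and -0.090. In TNF-α+WBT against TNF-α, 0 genes of these 4 lists were called by limma.

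**Figure D5:**
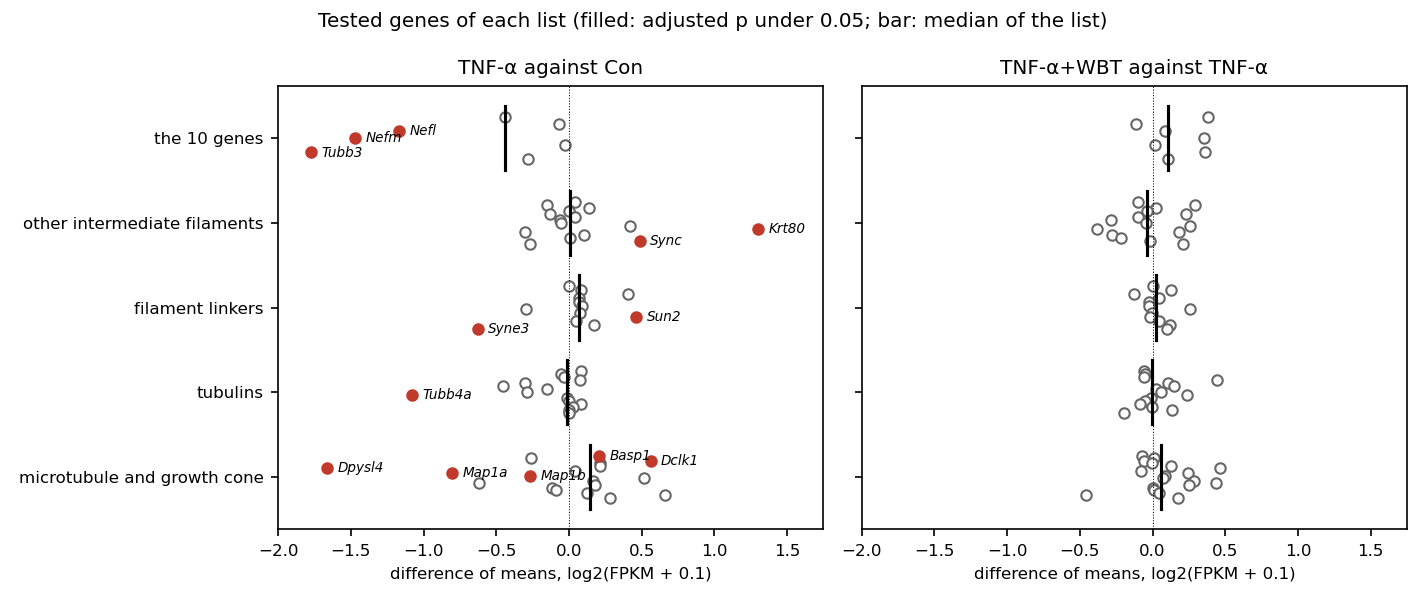
Difference of group means on the log2(FPKM + 0.1) scale (x axis) for every tested gene of 5 lists (y axis), in TNF-α against Con (left) and TNF-α+WBT against TNF-α (right); points are genes, filled where the adjusted p is under 0.05, and bars are list medians. Filled points in the left panel are named, with Tubb3 at -1.77 the lowest and Krt80 at 1.30 the highest, and the right panel has none.

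Markers of cell types did not all move in the direction of the members. The counts for these lists stand beside 2.94% of all tested genes called higher and 1.93% called lower in TNF-α against Con. Of the Schwann cell markers, 12 of 12 were tested, 5 fell (Ngfr, S100b, Cdh19, Erbb3 and Foxd3) and 1 rose (Pou3f1) in TNF-α against Con, and the summed level of the list was 930 to 987 FPKM in Con, 761 to 823 FPKM in TNF-α and 827 to 855 FPKM in TNF-α+WBT. Sox10, the defining transcription factor of these cells, did not pass, at -0.17. Of the neuron markers 6 of 12 were tested, and 1 fell, Uchl1, a ubiquitin hydrolase of neurons and other cells, by 1.64 (limma adjusted p = 6.36e-06). The summed level of this list was 12.8 to 14.3 FPKM in Con, 4.97 to 5.98 FPKM in TNF-α and 5.79 to 6.23 FPKM in TNF-α+WBT, most of it Uchl1.

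Fibroblast markers summed to 4817 to 5081 FPKM in Con, 5183 to 5441 FPKM in TNF-α and 5100 to 5226 FPKM in TNF-α+WBT, with 2 higher (Col1a1, Col1a2) and 2 lower (Pdgfrb, Postn) of 11 tested. Macrophage markers summed to 7.18 to 8.39, 21.4 to 23.9 and 17.1 to 20.2 FPKM, with 1 higher (Cd74, which belongs to antigen presentation) of 9 tested. Astrocyte markers summed to 75.0 to 107, 72.0 to 97.4 and 92.4 to 95.9 FPKM, with 1 higher (Glul) and 1 lower (Sox9) of 7 tested. Whether a shift between kinds of cells had a part in the differences of Tubb3, Nefm and Nefl was not tested.

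The genes whose log2(FPKM + 0.1) over the 9 libraries was most like that of a member were sought among the 12685 other genes averaging 1 FPKM or more. The libraries share 3 groups, so each value of r is mainly a likeness of group levels, and it is given as a description. For Tubb3 they were Cyp2j9, Gm45869 and Ngfr, each at r = 0.997. Ngfr, the low-affinity neurotrophin receptor, had means of 169, 97.0 and 108 FPKM in Con, TNF-α and TNF-α+WBT. For Nefm they were Mmp17 (r = 0.994), Stc2 (0.993) and Kirrel3 (0.991). For Nefl they were Gdnf, a glial growth factor (0.992), Rai2 (0.992) and Tgfbi (0.989), and Gdnf had means of 20.2, 12.6 and 13.2 FPKM. For Vim they were Bcap29 (0.985), the β-tubulin Tubb2a (0.966) and Igfbp5 (0.945), and for Nes, which hardly varied, Chd1l, Ppp3cb and Mrpl24 at 0.876 to 0.902.

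Between the members themselves, r over the 9 libraries was 0.990 for Nefm and Tubb3, 0.968 for Nefl and Tubb3 and 0.964 for Nefl and Nefm. After subtraction of the group means it was 0.37, -0.70 and -0.027 for the same pairs. The likeness over 9 libraries thus lay mainly in the group means.

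For all 10 genes the gene value equalled the sum of the listed transcripts within 0.0001 FPKM. Positions are those of GENCODE M21 on GRCm38. Tubb3 (ENSMUSG00000062380) lies on chr8:123411424-123422015, plus strand, and all of its FPKM was in transcript Tubb3-201, which has 4 exons and 1868 bases, with Tubb3-202 at 0 in all libraries. No window of 50 bases of Tubb3-201 occurred in a transcript of another gene, tubulins included. Vim (ENSMUSG00000026728, chr2:13573927-13582826, plus strand) had 88.3% to 94.7% of its level in Vim-201. Its minor transcript Vim-206 was at 13.2 FPKM in Con 2 and 11.6 FPKM in TNF-α+WBT 3 and at most 1.69 FPKM in the other libraries.

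Nes (ENSMUSG00000004891, chr3:87971078-87980451, plus strand) was divided between Nes-203, at 50.1% to 60.0% of its level, and Nes-201, at 37.8% to 47.4%, and the groups overlapped in this split. The neurofilament genes lie side by side on chromosome 14, Nefl (ENSMUSG00000022055) at chr14:68083863-68089095 on the plus strand and Nefm (ENSMUSG00000022054) at chr14:68082590-68124846 on the minus strand. An exon of Nefm-202 overlaps the first exon of Nefl on the opposite strand over 1108 bases, chr14:68083863-68084970, and 31.8% of the 50-base windows of Nefl occur there. The library kit does not mark strand, so fragments of this stretch could have been given to either gene. Nefm-202 was listed at no more than 0.217 FPKM in any library, while Nefm-201, with no window shared with another gene, held 98.1% of the Nefm level and carried its difference, at 6.29 ± 0.455 FPKM in Con, 2.10 ± 0.232 FPKM in TNF-α and 2.84 ± 0.205 FPKM in TNF-α+WBT.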

How the data were processed

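Poly(A) RNA of 9 libraries, 3 per group, was sequenced as paired ends. The authors deposited FPKM values per gene and per transcript; their flow chart names HISAT2, StringTie and Ballgown, and versions and genome build are not given in the sources used here. Groups came from the treatment labels. The study calls the libraries of a group biological replicates; neither it nor the labels say how their cultures were kept apart, and p-values measure the spread between these libraries. Of 56289 gene identifiers, 98.1% had an entry in GENCODE M21 (GRCm38).

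Values were tested as log2(FPKM + 0.1), which understates changes of low genes, with limma 3.58.1 in R 4.3.3 (lmFit, eBayes with an intensity trend) in 1 model of 3 group means over genes above 0 FPKM in at least 3 libraries. A fold change was called at a Benjamini-Hochberg adjusted p under 0.05. Exact two-sided permutation tests used scipy 1.17.1 (Python 3.11.15, pandas 2.3.3, numpy 2.4.6), and figures matplotlib 3.10.9. Depth was estimated from 10703 single-transcript genes over 1000 bases. Of low values, 54.9% to 59.1% came within 0.1 of whole fragments (20% by chance), so fragment numbers are approximate. The model was also run on simulated data with the same spread for all genes and changes only in genes averaging 1 FPKM or more. That run does not bear on members below this level.

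The genes and all lists were chosen with earlier results of these data known. Named were all 10 genes, from each related list at most 4 genes with the smallest p among those called in TNF-α against Con or TNF-α+WBT against TNF-α and the 2 with the highest mean, for each member of at least 1 FPKM the 3 genes with the highest Pearson r, and of the markers those at 0 and the 2 highest, of which 1 is not reported here. Other markers that were called were named after their values were seen. Alternatives were another pseudocount (1 or 0.01), filter, trend setting, samples in the model, median centring, summed transcripts, a replicate block and omission of each library.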

Additional observations from a re-analysis of the deposited data

How the results depend on the processing

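Of the alternative values for the 7 tested members, 356 kept direction and side of the threshold. Of the others, 14 reversed direction and 2 came to pass the threshold. Vim in TNF-α against Con passed the adjusted threshold over genes of mean at least 1 FPKM and without Con replicate 3, which raised the members called from 3 to 4; in all other settings 3, 0 and 3 members were called in TNF-α against Con, TNF-α+WBT against TNF-α and TNF-α+WBT against Con. The reversals were of differences that never passed: Nefh in TNF-α against Con was 0.27 with a pseudocount of 0.01. On omission of single libraries, the log2 difference in TNF-α against Con ranged from -0.045 to 0.014 for Nes and -0.39 to 0.15 for Nefh. In TNF-α+WBT against TNF-α it ranged from -0.0048 to 0.028 for Nes, -0.0026 to 0.14 for Nefl and -0.26 to 0.12 for Nefh. Without reversing, it ranged there from 0.11 to 0.59 for Gfap and 0.059 to 0.16 for Vim, and Gfap in TNF-α against Con was -0.13 with a pseudocount of 1. In TNF-α+WBT against Con it ranged from -0.028 to 0.030 for Nes, -0.33 to 0.15 for Gfap and -0.50 to 0.052 for Nefh.

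The single gene called in TNF-α+WBT against TNF-α became 11 with a pseudocount of 0.01, 7 without the trend, 2 in a model of only these groups, 2 with summed transcripts, and 0 to 11 with a library left out, and the cause was not tested. It became 0 with the replicate number as a block. The genes called in TNF-α+WBT against Con, 942, were 588 to 817 with a library left out, the lowest without Con replicate 3.

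Same-numbered libraries did not deviate together (correlations -0.067 to 0.095 over 9 pairs, 3 of 9 libraries best with their own number). No pairing by number was thus visible in the values, which cannot show whether the cultures were handled in numbered sets. The replicate block gave 893, 0 and 701 genes in place of 1236, 1 and 942, and changed no call of a member. Median centring shifted the comparisons by at most 0.022. With 3 libraries a group, values under about 10 fragments (Nefh, Prph, Ina, Stmn2) are limited by depth.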
